A study of Mus musculus with 12 samples.

Results

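PB-020, which inhibits IGF-1R, the receptor of insulin-like growth factors, was given alone to mice with MC38 tumors, and the transcriptomes of these tumors were compared with those of vehicle-treated tumors, named CK in the labels. The members of the comparison were the 6 tumors of these groups out of 12 sequenced, 3 PB-020 and 3 CK, chosen by their treatment labels. MC38 is a mouse colon adenocarcinoma line, and the cells were grown under the skin of 5-week-old female C57BL/6 mice, so that tumor and host transcripts were read together. Oral dosing with PB-020 began on day 7 after injection of the cells, at 50 mg/kg each day, and CK mice received the vehicle (DMSO in corn oil) without drug. The other 6 tumors, 3 given anti-PD-1 and 3 given PB-020 with anti-PD-1 (the antibody at 200 μg per mouse), served as a separate pair of groups that differed by the same drug. All 12 tumors came from 1 cell line and 1 strain. The labels do not say whether a library holds 1 tumor or a pool, so the p values measure the spread between these libraries.

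IGF-1R is a receptor tyrosine kinase at the cell surface. On binding IGF1 or IGF2 it recruits the adaptors IRS1 and IRS2, and through PI3K it activates AKT and mTOR, which favor protein synthesis and growth and keep the FOXO transcription factors out of the nucleus. A parallel arm runs through RAS and ERK to immediate early genes. When amino acids are short or the endoplasmic reticulum is stressed, and also downstream of mTORC1, the transcription factor ATF4 activates genes for amino acid synthesis, amino acid import and tRNA charging.

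The sequences below show promoters of genes from the ATF4 stress response list, because all members of this list were higher in PB-020 tumors. Each is a stretch of up to 80 bases around a match, ending at the latest at the RefSeq transcription start, read 5′ to 3′ on the gene's strand on GRCm38.p6, and the capitals mark a match to the 8 letters TGATGNAA or their reverse complement, a core of the ATF4 binding element. The Slc7a11 stretch holds a further match, TTGCATCA, that is left in small letters. The motif was chosen after the values had been seen.
Asns, chr6:7693210-7693268, minus strand: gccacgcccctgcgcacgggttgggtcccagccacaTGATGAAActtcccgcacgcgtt
Nupr1, chr7:126625537-126625616, minus strand: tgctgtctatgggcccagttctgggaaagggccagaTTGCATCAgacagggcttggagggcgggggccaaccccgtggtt
Pck2, chr14:55540127-55540206, plus strand: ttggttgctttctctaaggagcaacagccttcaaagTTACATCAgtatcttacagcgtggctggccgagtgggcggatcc
Vldlr, chr19:27216784-27216863, plus strand: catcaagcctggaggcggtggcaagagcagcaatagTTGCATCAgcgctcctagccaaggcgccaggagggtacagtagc
Slc7a11, chr3:50443636-50443715, minus strand: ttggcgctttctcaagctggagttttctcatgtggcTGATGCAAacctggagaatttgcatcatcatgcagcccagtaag
Chac1, chr2:119351013-119351092, plus strand: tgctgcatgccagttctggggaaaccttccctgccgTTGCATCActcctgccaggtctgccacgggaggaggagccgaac

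The first 4 of these genes were higher in PB-020 tumors at an unadjusted p under 0.05 and the last 2 were not. Over the window from 250 bases before to 50 after the start, on both strands, the letters were found in 7 of the 19 members of the list with a promoter in the table (36.8%), and in 307 of 10732 tested genes with one (2.86%). They were found in 4 of 10 members with p under 0.05 (40%) and in 3 of the 9 others (33.3%), so within the list a match did not separate these members. The list was written by hand as genes of the ATF4 response. Its higher share of matches beside all genes therefore does not bear on the drug. The core of forkhead sites, GTAAACA, was found in 3 of 30 promoters of the genes higher in PB-020 past the thresholds given next and in 1 of 24 of those lower (4.17%), beside 3.05% of tested genes with a promoter.

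The expected counts of a library, which are read numbers estimated by RSEM, summed to between 16732304 and 17217035 in the CK tumors and between 16926007 and 16978156 in the PB-020 tumors, so depth was nearly equal. CK tumor 3 stood apart from the other 5. It lay at 28.0 on the first principal component, which held 38.2% of the variance, while the others lay between -9.55 and 1.48. The PB-020 tumors were spread as well. On the second component, with 22.4% of the variance, PB-020 tumors 2 and 3 lay at 17.2 and -16.2, and the others between -3.04 and 5.37. Of the neutrophil and fat markers, Retnlg was at 23.7 FPKM in CK tumor 3 and 0.77 to 1.29 in the others, and Cfd, an adipocyte-secreted protease, was at 85.5 FPKM there and 0.76 to 4.88 in the others. FPKM is the read number scaled to transcript length and library depth. Of the defining epithelial markers Epcam, Krt8 and Krt18, none passed the filter on low counts, and 3 of 16 epithelial markers did, whereas all 19 mesenchymal genes listed did.

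At the level of single genes the response to PB-020 alone was small. With edgeR's quasi-likelihood test, 0 of the 13563 genes tested reached a Benjamini-Hochberg adjusted p under 0.05 (0%), the smallest being 0.395. At an unadjusted p under 0.05 there were 741 genes (5.46%), 423 higher in PB-020 (3.12%) and 318 lower (2.34%). When a fold of more than 1.5 was asked for as well, there were 76 genes (0.560%), of which 41 were higher (0.302%) and 35 lower (0.258%). The cutoffs are those of the study but the p is edgeR's, and a per-gene test on FPKM, the kind the study used, gave 185 genes. With scaling by library size alone the split was 30 higher and 41 lower. In 54 of the 76, 29 higher and 25 lower, the ranges of the PB-020 and CK tumors did not overlap in counts scaled between libraries, as was so in 14.3% of all genes tested. The same values chose the 76 genes, so this separation follows in large part from the choice and adds no support. The median log2 change of all genes was -0.0038, and the 5th and 95th percentiles were -0.33 and 0.29. DESeq2, run on the same counts, called 6 genes, namely Cth, Aldh1l2, Ankrd1, Fam171b and Timm8a1 as higher and Tenm3 as lower. No gene is therefore called by the main test, and the genes named hereafter are described by their values.

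**Figure D1:**
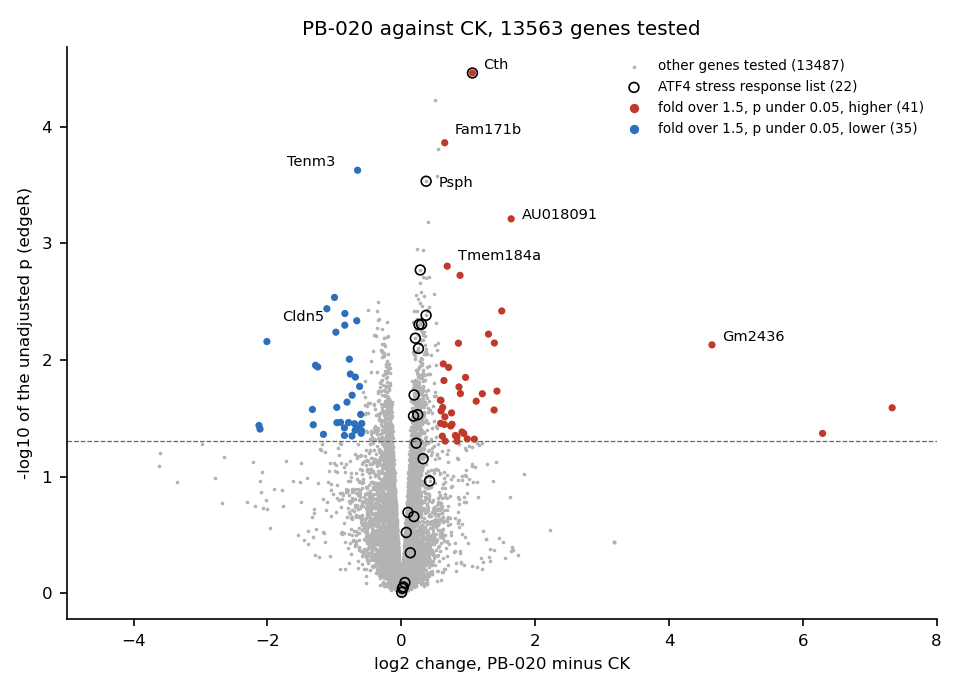
Log2 change in PB-020 against CK (x axis) and -log10 of the unadjusted edgeR p (y axis) for the 13563 genes tested, 1 point a gene. Red and blue points are the 41 higher and 35 lower genes past both thresholds, black rings are the 22 ATF4 list members, all of which lie to the right of 0, and the dashed line marks the threshold on the y axis.

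The gene with the smallest p was Cth, which encodes cystathionine gamma-lyase, the last enzyme of the transsulfuration route from methionine to cysteine. Cth lies on chromosome 3 from 157894248 to 157925081 on GRCm38.p6. Its level was 5.51, 4.63 and 5.46 FPKM in the CK tumors and 11.2, 12.1 and 8.67 FPKM in the PB-020 tumors. Every PB-020 tumor was above every CK tumor, by a log2 change of 1.06 ± 0.18 (SE, n = 3 per group, edgeR adjusted p = 0.395), with a 95% interval of 0.68 to 1.44. Over the alternative settings its adjusted p ran from 0.000948 with DESeq2 to 0.9998 with edgeR without CK tumor 2. In the tumors that received the antibody, Cth was at 10.9, 7.17 and 6.92 FPKM with anti-PD-1 alone and at 10.9, 9.78 and 9.02 FPKM with both drugs, groups that overlapped, with a log2 change of 0.25 ± 0.17 for the drug.

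Aldh1l2, the mitochondrial enzyme that releases carbon dioxide from formyl-tetrahydrofolate, had the next smallest p. It was at 13.6, 15.7 and 14.1 FPKM in CK and at 21.1, 19.8 and 20.02 FPKM in PB-020 tumors, a log2 change of 0.50 ± 0.09 with no overlap between the groups. Fam171b, a single-pass membrane protein of little known function, was at 4.37, 4.61 and 3.53 FPKM in CK and at 5.98, 5.56 and 7.59 FPKM in PB-020, a log2 change of 0.65 ± 0.12. Ankrd1, a muscle ankyrin repeat protein and a well known YAP target, was higher by 0.55 ± 0.11 on the log2 scale, and Timm8a1, a chaperone of mitochondrial import, by 0.53 ± 0.11. Psph, phosphoserine phosphatase, which carries out the last step of serine synthesis, was at 23.2, 20.6 and 21.6 FPKM in CK and at 27.7, 27.1 and 28.6 FPKM in PB-020. These groups did not overlap either, and the log2 change was 0.37 ± 0.08.

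Tenm3, a teneurin cell adhesion protein, had the smallest p among genes lower in PB-020. Its level was 4.14, 5.27 and 5.64 FPKM in CK and 3.13, 3.07 and 3.18 FPKM in PB-020, so that the PB-020 tumors were nearly equal and all lay below CK, by a log2 change of -0.65 ± 0.13 (SE, edgeR adjusted p = 0.567). Tenm3 lies on chromosome 8. Cldn5, the claudin of endothelial tight junctions, was at 3.21, 4.32 and 3.96 FPKM in CK and at 1.78, 2.15 and 2.38 FPKM in PB-020, with no overlap and a log2 change of -0.84 ± 0.25. Adamts12, a secreted metalloproteinase, was at 2.0, 2.58 and 3.08 FPKM in CK and at 1.52, 1.79 and 1.45 FPKM in PB-020. Its log2 change was -0.66 ± 0.20, again without overlap. With anti-PD-1 alone against the same CK tumors, the log2 changes were -0.97 in Tenm3, -1.07 in Cldn5 and -0.89 in Adamts12. All were thus lower than in CK without PB-020 as well, and both comparisons share the CK tumors.

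The other genes named by the rule, the 12 higher and 12 lower genes of smallest p that had no overlap and passed the thresholds, were mostly of low level. Among the higher ones, Il1rl1, the receptor of interleukin 33, was at 11.9, 9.92 and 12.7 FPKM in CK and at 13.6, 21.5 and 18.8 FPKM in PB-020. Tmem184a was at 2.34, 2.5 and 2.13 FPKM in CK and at 2.83, 4.05 and 4.04 FPKM in PB-020. H2-Q6, a nonclassical MHC class I gene whose reads can be shared with near-identical H2-Q copies and which is therefore uncertain, was at 2.96 to 3.62 FPKM in CK and 5.12 to 7.0 FPKM in PB-020. The linker histone Hist1h1e and the core histone Hist1h3c were higher by 1.5 ± 0.43 and 1.3 ± 0.40 on the log2 scale, and their genes also belong to a family of near-identical copies. Themis, a T cell signaling protein, was at 0.08 to 0.18 FPKM in CK and 0.26 to 0.33 FPKM in PB-020, and rested on 7 to 26 counts a tumor. AU018091, Sept3, Sult2b1 and Zfp600 completed the higher group with log2 changes of 1.64, 0.71, 0.96 and 0.64. In the 12 higher genes, anti-PD-1 alone against the same CK tumors gave log2 changes from 0.08 (Hist1h1e) to 2.48 (Themis), all above 0. A higher level than in CK was thus not particular to PB-020 tumors.

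Among the lower ones, Gm46255 and Gm46310 had log2 changes of -1.0 ± 0.28 and -1.11 ± 0.32. Tmem255a was at 1.56, 1.89 and 2.11 FPKM in CK and at 1.03, 1.23 and 0.87 FPKM in PB-020, a log2 change of -0.84 ± 0.24. Gm3317, Prickle2, Muc6, Chst7, F420015M19Rik and Slc25a35 had log2 changes between -2.01 and -0.62, and all but Slc25a35 were under 1 FPKM in every tumor. The planar polarity gene Prickle2 was the deepest of these, at 40 to 123 counts a tumor. In the lower genes of this paragraph, anti-PD-1 alone against the same CK tumors gave log2 changes from -1.47 (Tmem255a) to 0.07 (F420015M19Rik). Only F420015M19Rik was not below 0 there. In 28 of the 76 genes past the thresholds no tumor of the 6 had more than 30 counts, and the 3 largest fitted changes rested on reads in 2 of the 3 PB-020 tumors. Xntrpc had 0 counts in the CK tumors and 0, 36 and 24 in the PB-020 tumors, while the overlapping gene Trpc2 had 29, 19 and 20 in CK and 15, 0 and 0 in PB-020, so the reads of this pair cannot be told apart. Gm2436 had 68, 86 and 2 counts in PB-020 and 0 to 4 in CK.

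**Figure D2:**
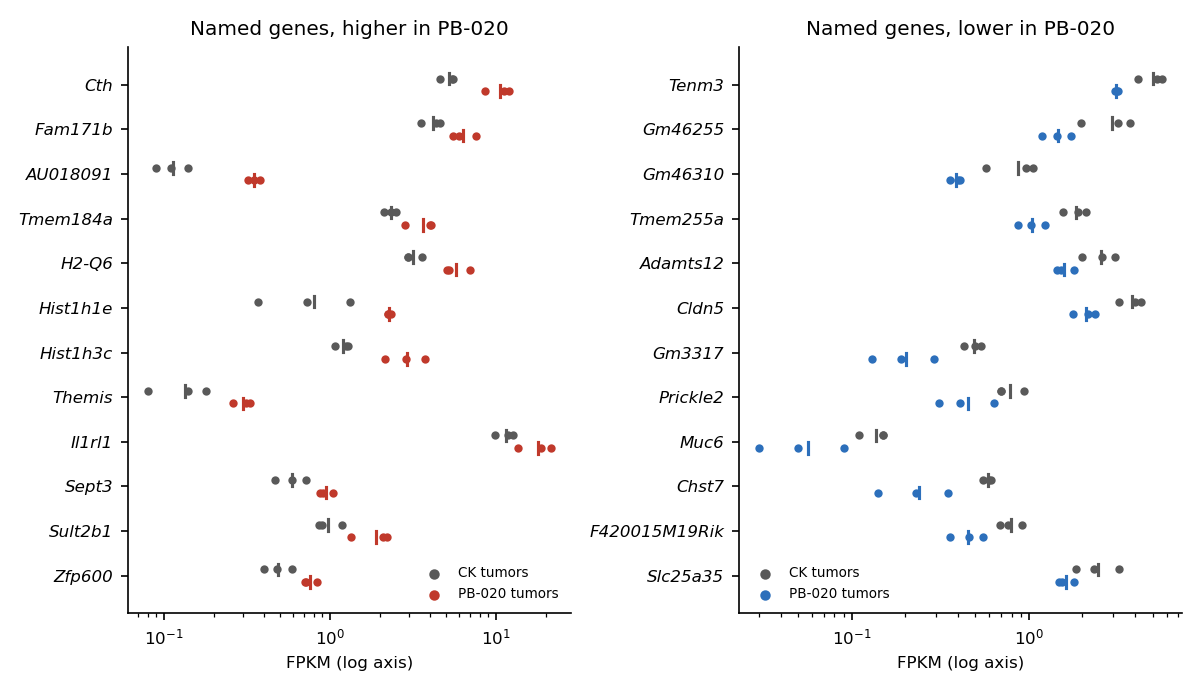
FPKM on a log axis in each of the 3 CK tumors (dark gray points) and 3 PB-020 tumors (colored points) for the 12 higher (left) and 12 lower (right) genes named by the rule, in order of p, with short lines at the group means. The PB-020 tumors of Cth (8.67 to 12.1 FPKM) and Tenm3 (3.07 to 3.18 FPKM) are clear of the CK tumors.

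The insulin and IGF axis was followed first, because PB-020 acts on its receptor. Igf1r, the target of the drug, was at 10.1, 11.6 and 11.9 FPKM in CK and at 10.6, 10.9 and 10.5 FPKM in PB-020, groups that overlapped. Its log2 change was -0.06 ± 0.06 with a 95% interval of -0.19 to 0.08, and the transcript level of a target does not measure its inhibition. Insr, the insulin receptor, was lower by a log2 change of -0.14 ± 0.09, with overlap. The ligand Igf1 was at 1.01, 1.62 and 1.58 FPKM in CK and at 1.87, 1.28 and 1.31 FPKM in PB-020, and Igf2 was at 0.17 to 0.33 FPKM in CK and 0.17 to 0.21 FPKM in PB-020, so neither separated the groups.

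The adaptor Irs1 had the smallest p of the axis. It was at 2.92, 3.10 and 3.06 FPKM in CK and at 2.67, 2.54 and 2.49 FPKM in PB-020, all lower, with a log2 change of -0.22 ± 0.07 (SE, edgeR adjusted p = 0.874). Igf2r, the receptor that clears IGF2, was at 21.0, 23.2 and 23.9 FPKM in CK and at 20.7, 19.8 and 16.9 FPKM in PB-020, with a log2 change of -0.22 ± 0.10. The related adaptor Irs2 was lower by -0.12 ± 0.10 with overlap. Of the 13 ligands, receptors and adaptors tested, 8 were lower, beside 6955 of all 13563 genes, and the list median was -0.06. At an unadjusted p under 0.05, 2 were lower (Irs1 and Igf2r), beside 2.34% of all genes. Of the 9 IGF-binding proteins and regulators tested, 0 passed that p in either direction, and Pappa, a protease of IGF-binding proteins, had the smallest p with 0.02 to 0.03 FPKM in CK and 0.05 to 0.08 FPKM in PB-020.

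Downstream, the PI3K, AKT and mTOR genes showed small differences in both directions. Of 32 members 9 had a log2 change above 0, beside 48.7% of all genes, and 3 were higher and 2 lower at an unadjusted p under 0.05, beside 3.12% and 2.34% of all genes. The list median was -0.05. The higher ones were Rps6, the ribosomal substrate of S6 kinase, Rheb, the GTPase that activates mTORC1, and Eif4ebp1, a repressor of cap-dependent translation, with log2 changes of 0.25 ± 0.10, 0.20 ± 0.08 and 0.14 ± 0.06. The lower ones were Phlpp2, a phosphatase of AKT, at -0.21 ± 0.08, and Pik3r3, a PI3K regulatory subunit, at -0.46 ± 0.21. Akt1 was at 113, 115 and 107 FPKM in CK and at 107, 101 and 118 FPKM in PB-020, which overlapped (log2 change -0.03 ± 0.07).

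FOXO factors and their targets, which PI3K and AKT signaling keeps low, were followed as 24 genes. Of these, 6 had a log2 change above 0, beside 48.7% of all genes, 3 were lower at an unadjusted p under 0.05, beside 2.34% of all genes, and 0 were higher at that p in edgeR, with a median of -0.07. Sesn1, a sestrin that restrains mTORC1, was at 12.6, 15.7 and 16.5 FPKM in CK and at 11.8, 11.5 and 9.96 FPKM in PB-020, without overlap and with a log2 change of -0.40 ± 0.12. The receptor tyrosine kinase Erbb3 was lower by -0.54 ± 0.19, without overlap, and Bcl2l11, the pro-apoptotic BIM, by -0.35 ± 0.13, with overlap. Foxo1 and Foxo3 themselves were at -0.07 each, within their errors.

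On the ERK arm, 11 of 18 output genes were higher and 3 passed an unadjusted p under 0.05, all of them higher. Fosl1, an AP-1 subunit, was at 99.6, 91.2 and 98.2 FPKM in CK and at 121, 114 and 112 FPKM in PB-020, with a log2 change of 0.29 ± 0.08. The ephrin receptor Epha2 was at 33.1 to 38.7 FPKM in CK and 39.7 to 44.1 FPKM in PB-020 (0.29 ± 0.09), and Il1rl1, described above, was the third. The feedback phosphatase Dusp6 was at -0.10 ± 0.08 and overlapped. Of 16 immediate early genes 14 were higher, 2 at that p (Cyr61 and Atf3) with Egr3 lower, and the list median was 0.12, beside 48.7% of all genes above 0 and 3.12% higher at that p. With a tumor left out the median ran from 0.05 (without CK tumor 1) to 0.28 (without CK tumor 3), and the members higher at that p from 0 (without PB-020 tumor 1) to 5 (without CK tumor 3). Cyr61 was at 38.8, 38.8 and 38.9 FPKM in CK and 47.6, 42.5 and 49.8 FPKM in PB-020. Given with the antibody, the drug went with a log2 change of -0.28 ± 0.11 in Cyr61 and -0.42 in Atf3, opposite in sign to the changes of the drug alone.

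**Figure D3:**
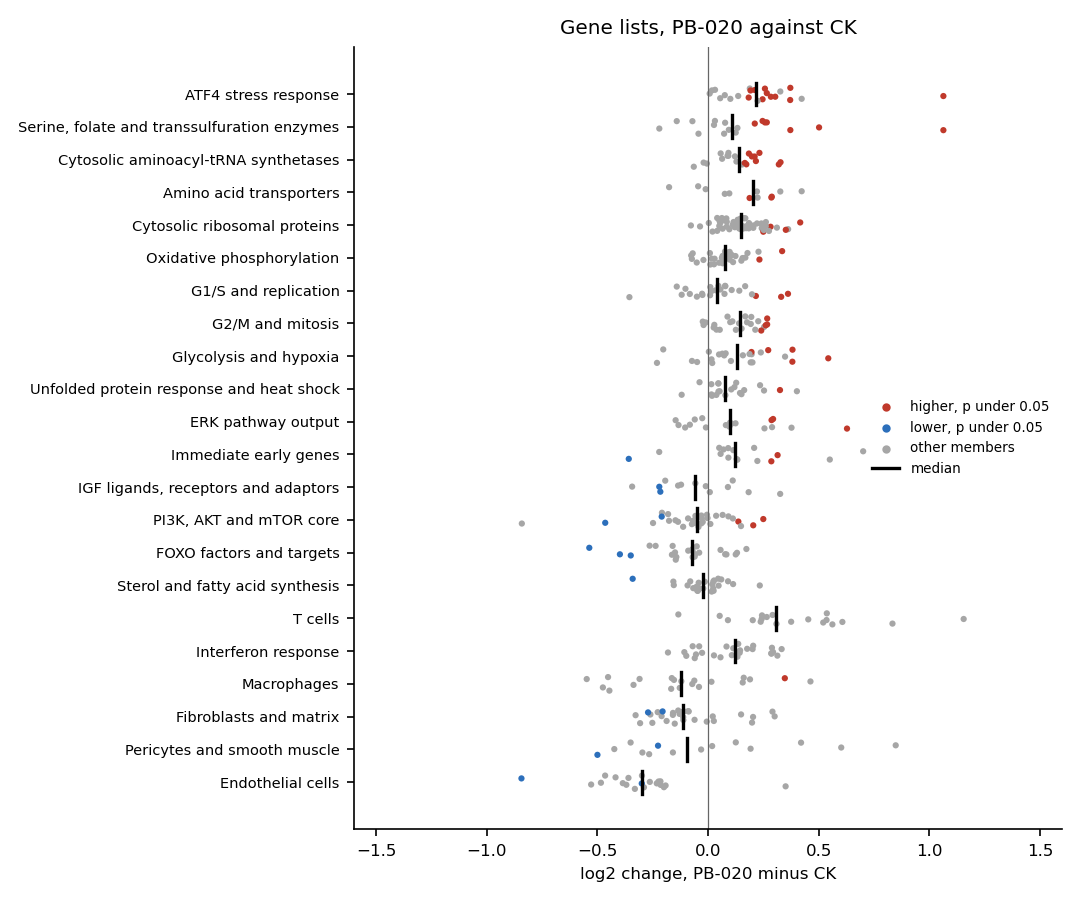
Log2 change in PB-020 against CK of each tested member (points) of 22 gene lists (rows), with list medians as black bars. Red and blue points are members with an unadjusted edgeR p under 0.05, and the ATF4 list (median 0.22) and endothelial markers (median -0.30) lie on opposite sides of 0.

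The ATF4 stress response genes were higher in PB-020 tumors as a group. All 22 members had a log2 change above 0, as did 48.7% of all genes tested, 11 were higher at an unadjusted p under 0.05 beside 3.12% of all genes, and 0 were lower at that p. In 12 members the PB-020 tumors were all above the CK tumors, as in 7.78% of all genes. The list median was 0.22. Members move together in a tumor and are not replicates of the condition, and the list holds genes that were known from earlier results of these data. Over the 15 alternative settings, 18 to 22 members were higher, 8 to 15 had an unadjusted p under 0.05, all higher, and the median lay between 0.17 and 0.28. Without CK tumor 3, 20 of 22 were higher and the median was 0.19.

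The members with p under 0.05 were mostly enzymes of serine, asparagine and one-carbon metabolism. Asns, asparagine synthetase, was at 109, 102 and 99.0 FPKM in CK and at 119, 129 and 124 FPKM in PB-020, a log2 change of 0.28 ± 0.07. Phgdh, which commits glycolytic carbon to serine, was at 212, 207 and 205 FPKM in CK and at 232, 233 and 247 FPKM in PB-020, a log2 change of 0.21 ± 0.07. Psat1, the transaminase of the same route, was at 146, 125 and 121 FPKM in CK and at 149, 162 and 153 FPKM in PB-020. In each of these the groups did not overlap, though CK tumor 1 came near the PB-020 range in Psat1.

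The mitochondrial one-carbon enzymes Shmt2 and Mthfd2 had log2 changes of 0.26 ± 0.08 and 0.25 ± 0.10. Nupr1, a stress-induced chromatin protein, was among the most abundant members. It was at 416, 466 and 406 FPKM in CK and at 538, 526 and 585 FPKM in PB-020, a log2 change of 0.37 ± 0.11 without overlap. Vldlr, a lipoprotein receptor, Pck2, the mitochondrial PEP carboxykinase, and Aldh18a1, which starts proline synthesis, had log2 changes of 0.30, 0.19 and 0.18.

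The genes of the list that mark acute stress did not separate the groups. Ddit3, which encodes CHOP, was at 63.5, 89.2 and 59.5 FPKM in CK and at 87.5, 73.2 and 79.0 FPKM in PB-020. Chac1, which degrades glutathione, was at 17.0, 29.1 and 11.2 FPKM in CK and at 19.1, 21.6 and 16.3 FPKM in PB-020 (0.01 ± 0.34). Trib3, a pseudokinase inhibitor of AKT, and Sesn2 also overlapped, at 0.14 ± 0.17 and 0.03 ± 0.22. In all 4 of these genes CK tumor 2 was the highest of the 3 CK tumors, and its mean over the list, as log2 CPM (counts scaled to library depth) relative to the CK mean, was 0.12 against -0.07 and -0.05 in the other CK tumors and 0.18 to 0.31 in the PB-020 tumors. Atf4 itself was at 319, 366 and 331 FPKM in CK and at 356, 373 and 345 FPKM in PB-020, a log2 change of 0.10 ± 0.08, and is also regulated at translation.

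**Figure D4:**
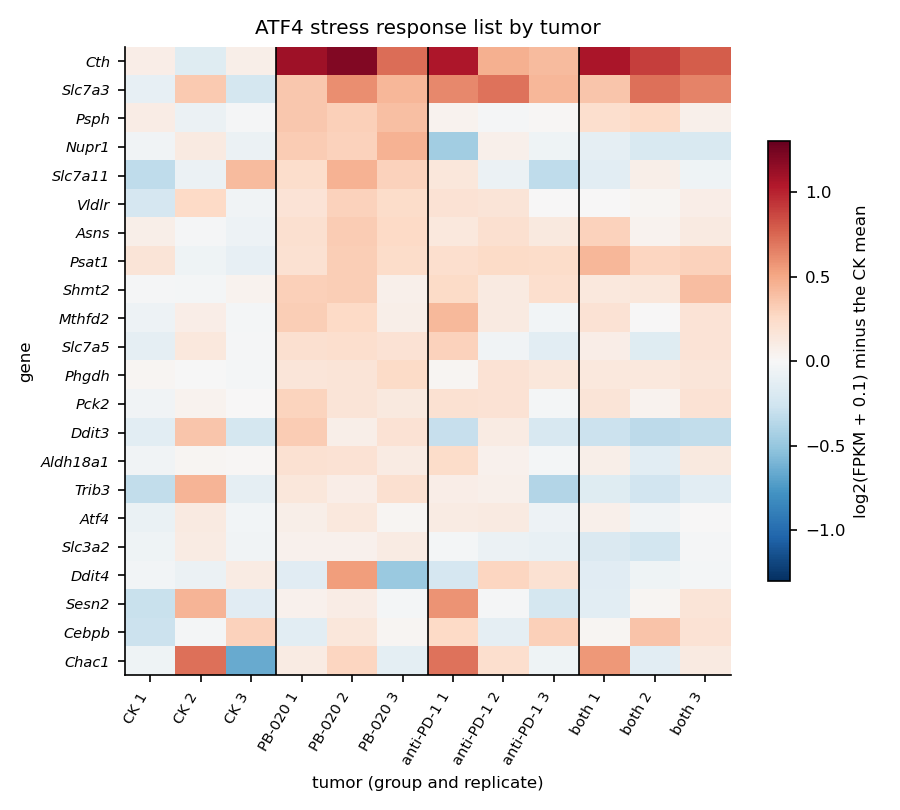
Log2(FPKM + 0.1) minus the CK mean for the 22 ATF4 list members (rows, ordered by log2 change in PB-020) in each of the 12 tumors (columns, "both" being PB-020 with anti-PD-1). Cth, the top row, is red in every tumor outside CK, and CK 2 is red in Chac1, Trib3 and Sesn2.

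Related groups that were added after the values had been seen are given as a description. Of the 20 cytosolic aminoacyl-tRNA synthetases, which attach amino acids to tRNAs, 17 were higher, 9 at an unadjusted p under 0.05, and 13 did not overlap, with a median of 0.14. The shares of all genes were 48.7%, 3.12% and 7.78%. Lars was at 49.5, 47.1 and 51.5 FPKM in CK and at 59.6, 60.7 and 61.8 FPKM in PB-020, a log2 change of 0.32 ± 0.08. Without CK tumor 3, 3 of the 20 rather than 9 passed that p, and 17 were still higher. The TGATGNAA letters stood in the promoters of 5 of 13 of these genes (38.5%). Of 12 amino acid transporters 9 were higher, 3 at that p. The glutamine transporter Slc1a5 was at 64.7, 65.2 and 68.4 FPKM in CK and at 76.5, 73.2 and 72.7 FPKM in PB-020, with no overlap and a log2 change of 0.19 ± 0.05.

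Of 18 enzymes of serine, folate and transsulfuration metabolism, also a group added after the values had been seen, 14 were higher, beside 48.7% of all genes. At an unadjusted p under 0.05 there were 7, all higher, beside 3.12% of all genes. They were Cth, Aldh1l2, Psph, Psat1, Phgdh, Shmt2 and Mthfd2, of which all but Aldh1l2 are also in the ATF4 list. The exception in direction with separate groups was Mat2a, which makes S-adenosylmethionine, at 97.4, 95.3 and 93.3 FPKM in CK and at 82.9, 82.3 and 90.2 FPKM in PB-020. Its log2 change was -0.14 ± 0.07. The TGATGNAA letters were in 0 of 15 promoters of this group.

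Ribosomal protein genes were slightly but broadly higher. Of 54 members 52 had a log2 change above 0 and 27 did not overlap, with a median of 0.15, but 4 passed an unadjusted p under 0.05. Of all genes 48.7% were above 0, 7.78% were above CK without overlap and 3.12% were higher at that p. Rps14 was at 2072, 2128 and 2101 FPKM in CK and at 2808, 2500 and 3030 FPKM in PB-020, a log2 change of 0.42 ± 0.12. Rps4x was at 2540, 2355 and 2416 FPKM in CK and at 2961, 3019 and 3239 FPKM in PB-020 (0.35 ± 0.12). Many of these genes have processed pseudogenes that can share reads. The number higher lay between 47 and 52 over the alternatives. Of 32 genes of oxidative phosphorylation 27 were higher and 9 did not overlap, with 2 at that p, Cox6c and Uqcrc2, subunits of complexes IV and III. Cox6c was at 240, 220 and 254 FPKM in CK and at 288, 312 and 294 FPKM in PB-020.

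Glycolytic and hypoxia-induced genes were higher in 20 of 24 cases, 5 of them at an unadjusted p under 0.05, with a median of 0.13. Of all genes tested, 48.7% were above 0 and 3.12% were higher at that p. Bnip3, a mitophagy receptor induced by HIF-1, was at 149, 143 and 115 FPKM in CK and at 173, 184 and 165 FPKM in PB-020, a log2 change of 0.38 ± 0.11. Slc2a1, the glucose transporter GLUT1, was at 67.5, 67.1 and 64.8 FPKM in CK and at 84.5, 100.4 and 71.0 FPKM in PB-020 (0.38 ± 0.13). Ankrd37 was higher by 0.54 ± 0.17. PB-020 tumor 2 was the highest tumor in Slc2a1, Ankrd37 and Bnip3. Without PB-020 tumor 2, 14 of 24 were higher, 1 at that p, and the median was 0.04.

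For genes of G2 and mitosis the counts turned on the same tumor. Of 24 genes of G2 and mitosis 21 were higher, 4 at an unadjusted p under 0.05, and the median was 0.15. The shares of all genes were 48.7% above 0 and 3.12% higher at that p. Top2a was at 174, 143 and 146 FPKM in CK and at 170, 220 and 159 FPKM in PB-020, where tumor 2 alone exceeded the CK range. Without PB-020 tumor 2, 12 of 24 were higher, 0 at that p in edgeR, and the median was 0.004. Of 24 genes of G1/S and replication 16 were higher (10 without PB-020 tumor 2), 3 at that p, among them the clamp loader subunit Rfc4, at 25.2, 23.6 and 25.1 FPKM in CK and 30.8, 30.03 and 32.9 FPKM in PB-020. Of 64 replication-dependent histone genes, a group added after the values had been seen, 29 passed the filter on low counts. Of these, 24 were higher and 4 passed that p. The number higher ran from 15 to 54 over the alternatives, which differ in the number of these genes tested.

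In lipid synthesis the 27 genes showed a median of -0.02, with 1 lower at an unadjusted p under 0.05, beside 2.34% of all genes. That gene, Scd1, the stearoyl-CoA desaturase, was at 71.9, 79.8 and 95.4 FPKM in CK and at 61.5, 68.1 and 62.3 FPKM in PB-020, with no overlap and a log2 change of -0.34 ± 0.10. Of 21 genes of the unfolded protein response and heat shock 19 were higher, beside 48.7% of all genes, but only Hsp90aa1 had such a p. Hsp90aa1 was at 379, 328 and 329 FPKM in CK and at 402, 487 and 390 FPKM in PB-020. Among 18 clock genes, another group added after the values were seen, Per3 and Tef were lower and Bhlhe40 higher at that p. Of all genes 2.34% were lower and 3.12% higher at that p. Per3 was at 6.37, 7.0 and 6.67 FPKM in CK and at 5.39, 4.71 and 5.05 FPKM in PB-020, a log2 change of -0.38 ± 0.12.

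Markers of host cells were compared next. In whole tumors, fewer cells of a type and less RNA per cell cannot be told apart. Endothelial markers were lower in 19 of 20 cases, beside 6955 of all 13563 genes. At an unadjusted p under 0.05, 2 were lower, beside 2.34% of all genes. The groups did not overlap in 5, beside 6.47% of all genes lower without overlap. The list median was -0.30. Cldn5 (above) and Nos3, the endothelial nitric oxide synthase, had the smallest p, and Nos3 was at 2.15, 2.32 and 2.29 FPKM in CK and at 1.77, 2.10 and 1.59 FPKM in PB-020. Among the defining markers, Cdh5 was at 11.5, 14.9 and 18.7 FPKM in CK and at 9.61, 12.99 and 9.56 FPKM in PB-020, and Pecam1 was at 17.2, 16.7 and 22.9 FPKM in CK and at 14.8, 17.6 and 14.2 FPKM in PB-020, so both overlapped. CK tumor 3 was the highest in each. Without CK tumor 3 the median was -0.15, with 2 of 21 members higher and 1 lower at that p.

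Fibroblast and matrix genes were lower in 22 of 29 cases, 2 at an unadjusted p under 0.05, with a median of -0.11. Of all 13563 genes tested 6955 were lower, and 2.34% were lower at that p. Pdgfra was at 12.1, 15.1 and 14.8 FPKM in CK and 11.3, 12.4 and 10.5 FPKM in PB-020, with a slight overlap, and Col3a1 was at 1177, 1340 and 1531 FPKM in CK and at 1071, 1097 and 1049 FPKM in PB-020. The pericyte receptor Pdgfrb was at 31.0, 34.9 and 37.6 FPKM in CK and at 27.7, 29.6 and 29.2 FPKM in PB-020, a log2 change of -0.23 ± 0.08 without overlap. With the antibody its log2 change was -0.22 ± 0.08, close in size. Without CK tumor 3, 17 of the 29 fibroblast and matrix genes were lower, 0 at that p in edgeR, with a median of -0.06.

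T cell markers were higher in 18 of 19 cases, beside 48.7% of all genes, with a median of 0.31. However, 0 passed an unadjusted p under 0.05 in edgeR, and 6 did not overlap, beside 7.78% of all genes above CK without overlap. Cd3d was at 0.69, 0.70 and 1.05 FPKM in CK and at 1.20, 1.19 and 1.40 FPKM in PB-020. Cd8a, at 1.86 to 2.88 FPKM in CK and 2.43 to 3.08 FPKM in PB-020, overlapped, and Lck was at 1.98, 2.0 and 2.87 FPKM in CK and at 3.52, 3.19 and 2.88 FPKM in PB-020. Leaving out each tumor in turn gave medians from 0.27 to 0.50, and without CK tumor 3 and anti-PD-1 tumor 1 6 of the 19 passed that p, all higher. Interferon response genes varied more between tumors of a group than between groups. As the mean log2 CPM of 26 genes relative to CK, CK tumors were at -0.02, -0.60 and 0.61 and PB-020 tumors at 0.37, -0.44 and 0.51, and 0 passed that p in edgeR. Without CK tumor 2, 6 of 26 were higher, and without CK tumor 3 all 26. Macrophage markers were lower in 14 of 20 cases, beside 6955 of all 13563 genes, with a median of -0.12 and 0 of them at that p in edgeR. Without CK tumor 3 they were lower in 10 of 20, with a median of -0.003. Spp1, osteopontin, was higher with p under 0.05, at 415, 377 and 308 FPKM in CK and at 446, 488 and 448 FPKM in PB-020.

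Neutrophil and adipocyte markers had the lowest list medians, -1.61 over 12 genes and -0.93 over 7, and both turned on CK tumor 3. Without CK tumor 3 the medians were 1.32 and 0.61. Keratinocyte and skin genes were higher in 10 of 10 cases, beside 48.7% of all genes, with 0 at an unadjusted p under 0.05 in edgeR. As the mean log2 CPM relative to CK, PB-020 tumor 3 was at 1.39 and the other PB-020 tumors at -0.28 and -0.24. Of the other host lists, erythroid markers were lower in 6 of 6 cases, beside 6955 of all 13563 genes. Among them 0 had an unadjusted p under 0.05 in edgeR and 0 were without overlap. Alas2, the erythroid heme synthesis enzyme, was at 3.33 to 5.91 FPKM in CK and 1.13 to 3.42 FPKM in PB-020. Antigen presentation genes (18 tested, median 0.01) and cytotoxic lymphocyte genes (20 tested, median 0.07) passed no unadjusted p under 0.05 in edgeR in either direction. With a tumor left out their medians ran from -0.17 (without CK tumor 2) to 0.15 (without PB-020 tumor 2) and from -0.10 (without PB-020 tumor 3) to 0.49 (without PB-020 tumor 2), so neither list had a stable direction.

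The same drug was then compared in the tumors that received anti-PD-1, where no library is shared with PB-020 and CK. There edgeR also called 0 genes, and 984 had an unadjusted p under 0.05 (7.26%). The difference between the effects of PB-020 alone and with the antibody, tested as an interaction on all 12 libraries, was called for 0 genes, with 310 at an unadjusted p under 0.05 (2.29%) and a smallest adjusted p of 0.9998. Of the 741 genes with an unadjusted edgeR p under 0.05 for PB-020 alone, 556 (75.0%) had the same sign with the antibody. Of the 76 that also passed the fold threshold 38 (50%) had, and of all genes tested 61.7% had. The 41 higher genes had a median of 0.85 alone and of 0.005 with the antibody, and the 35 lower genes -0.84 alone and 0.0003 with it. The values alone were those that had chosen these genes, and the values with the antibody had not.

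One of these other libraries stood apart. Skeletal muscle genes, as the mean log2 CPM of 16 genes relative to CK, were at 3.83 in anti-PD-1 tumor 1, at -0.96 and 0.70 in its group, and between -0.44 and 0.59 in the PB-020 and CK tumors. All 16 were lower at an unadjusted p under 0.05 in edgeR with the drug and antibody, beside 2.81% of all genes, and 0 without that tumor and CK tumor 3. List values with the antibody are therefore given for all 12 libraries and for the remaining 10.

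The ATF4 list was compared in that setting next. Its mean log2 CPM relative to CK was 0.21, 0.16 and 0.05 with anti-PD-1 and 0.14, 0.09 and 0.13 with both drugs, so the reference tumors lay above the CK mean and overlapped those with both drugs. With all libraries, 7 of the 22 members had a log2 change above 0, beside 43.5% of all genes, 0 passed an unadjusted p under 0.05 in either direction in edgeR, and the median was -0.05. With the 10 libraries 12 of 22 were above 0, beside 50.6% of all genes, 1 was higher and 2 lower at that p, and the median was 0.02. The interaction over all libraries was below 0 in 21 of the 22 members, beside 52.4% of all genes. It was below 0 at an unadjusted edgeR p under 0.05 in 5, beside 195 of all 13563 genes. With the 10 libraries it was below 0 in 20 of 22, beside 49.4% of all genes. At that p it was below 0 in 6, beside 210 of 13620 genes. The interaction subtracts the change with the drug alone, which over all libraries was above 0 in all 22 members. Its sign therefore follows in part from those values. Nupr1 was at 313, 450 and 412 FPKM with anti-PD-1 and at 396, 374 and 373 FPKM with both, a log2 change of -0.06 ± 0.11. Asns was at 114, 119 and 113 FPKM and at 127, 107 and 112 FPKM, again with overlap. None of the interactions passed adjustment over all genes, so a difference between the settings is not shown for any single gene.

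Ribosomal protein genes were higher with the antibody in 49 of 54 cases, 12 at an unadjusted p under 0.05 beside 4.45% of all genes, with a median of 0.16 beside 0.15 for the drug alone. With the 10 libraries 32 of 54 were higher, 0 at that p in edgeR, and the median was 0.03, so the likeness to the drug alone did not hold without anti-PD-1 tumor 1 and CK tumor 3. Of all genes, 43.5% were higher over all libraries and 50.6% in the 10 libraries, where 805 of 13620 were higher at that p. T cell markers were higher in 11 of 19 cases with a median of 0.05, and in 19 of 19 with a median of 0.59 and 12 at that p in the 10 libraries. Endothelial markers were higher in 7 of 20 cases with a median of -0.06, and in 18 of 20 with a median of 0.25 in the 10 libraries. Genes of glycolysis and hypoxia were higher in 5 of 24 cases, and in 11 of 24 in the 10 libraries. The FOXO factors and targets were lower in 22 of 24 cases with a median of -0.10. In the 10 libraries 19 of 24 were lower, with a median of -0.06, and with the drug alone 18 of 24 were lower. Of all genes, 7669 of 13563 were lower with the antibody over all libraries and 6729 of 13620 in the 10 libraries. With the drug alone 6955 of 13563 were lower.

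**Figure D5:**
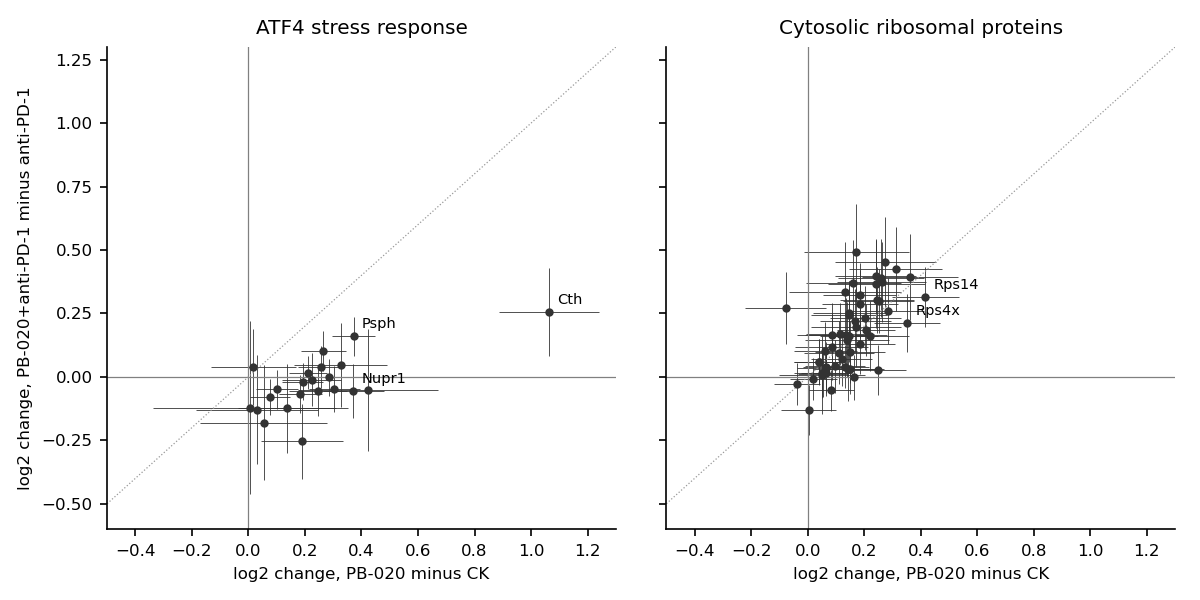
Log2 change of PB-020 alone against CK (x axis) and of PB-020 with anti-PD-1 against anti-PD-1 (y axis) for the ATF4 list (left, 22 genes) and ribosomal protein genes (right, 54 genes), with standard errors as bars and the dotted line at equality. The ATF4 genes lie right of 0 and around 0 on the y axis, and 49 of 54 ribosomal protein genes lie above 0 on the y axis.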

How the data were processed

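RNA from 12 MC38 tumors was sequenced as paired reads on an Illumina HiSeq instrument. According to the methods, the authors aligned reads with Bowtie2 and quantified genes with RSEM. Tools and build named in the submitters' processing notes were HISAT, Bowtie2 and GRCm38.p6, and the annotation is not given in the sources used here. The authors deposited RSEM expected counts (estimated, not normalized, 91.0% whole), FPKM (scaled to transcript length and depth) and TPM (not analysed further) for 18211 genes.

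Expected counts were rounded, filtered with filterByExpr (minimum count 10), scaled by TMM and fitted with edgeR 4.0.16 (R 4.3.3) as 4 group means over 12 libraries. Tests were two-sided, with Benjamini-Hochberg adjustment over all 13563 genes. The computation was tested on simulated data. The precision given by depth covers counting error and spread between tumors only. Alternatives were DESeq2 1.42.0, limma 3.58.1 on log2(FPKM + 1) or log2(FPKM + 0.1), other filters and scalings, the 6 libraries alone, blocking on replicate number, a per-gene test on FPKM and leaving out each library in turn.

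Genes named were the 12 higher and 12 lower of smallest p past fold 1.5 and unadjusted p under 0.05 without overlap, Igf1r, Insr, Igf1, Igf2, Irs1, Irs2 and Akt1, and the smallest-p member of lists. Other genes named were chosen after their values were seen. The members and 36 lists were chosen with earlier results of these data known, and 5 more lists after the values were seen. Sequences are from RefSeq on GRCm38.p6, where 18091 genes matched by number.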

Additional observations from a re-analysis of the deposited data

How the results depend on the processing

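Under DESeq2 6 genes were called for PB-020 against CK (673 at an unadjusted p under 0.05) and 1 for PB-020 added to anti-PD-1. Leaving out 1 tumor gave 0 to 1 called genes for PB-020 against CK (Gm2446 without PB-020 tumor 3), 0 to 2 for PB-020 added to anti-PD-1 (Mrc1 and Col6a5 without anti-PD-1 tumor 1) and 0 to 1 for the interaction (Gm2446). The count past fold 1.5 and p, 76, was 17 with limma on log2(FPKM + 1), 141 with no filter, 185 with the per-gene test on FPKM, and 77 to 142 with a tumor left out, the highest without CK tumor 1. Without CK tumor 3 and anti-PD-1 tumor 1, an alternative chosen after seeing the data, 2 genes were called (Cth and Ccl12) and 145 passed. The cause was not tested. The replicate numbers did not pair the tumors (correlations of 0.03, -0.02 and -0.04), and the replicate block gave 0 called genes and 63 past the thresholds. With a tumor left out, log2 changes reversed for Igf1 (range -0.0947 to 0.224), Akt1 (-0.0962 to 0.0135), Cxcl9 (-0.0100 to 0.511), Retnlg (-3.52 to 0.32) and Cfd (-4.82 to 1.52). The last 2 reversed without CK tumor 3, and also in the added alternative (0.32 and 1.52). With 3 tumors a group, changes near the median standard error of 0.11 on the log2 scale could not be resolved. Changes several times their standard error were not called either, as Cth, at 1.06 ± 0.18, had an edgeR adjusted p of 0.395.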
